A study of Mus musculus with 6 samples.

Results

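The genes described here encode the main collagens of connective tissue fibrils, the small leucine-rich proteoglycans that coat those fibrils, and a collagen chaperone. They were chosen by symbol from a table of read counts from sorted mouse mammary cells. The members were *Col1a1*, *Col1a2*, *Col3a1*, *Col5a1*, *Col5a2*, *Lum*, *Dcn*, *Bgn*, *Fmod* and *Serpinh1*, and all 10 were found among the 24061 gene symbols of the table. RNA was sequenced from CD45+CD11b+F4/80+ cells of the mammary glands of FVB/N mice, a gate for tissue macrophages, which were then separated by surface Lyve-1, the hyaluronan receptor encoded by *Lyve1*. There were 3 Lyve-1- and 3 Lyve-1+ libraries. Each library was 1 pool of sorted cells from 4 virgin mice. In both groups replicate 1 came from mice 6 weeks old and replicates 2 and 3 from mice 10 weeks old. No transgene or treatment is given for either group. The comparison of the 2 fractions asked how their transcripts differ. The p-values below measure the spread between these pools.

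Fibrillar collagens are made as long procollagen chains that wind into triple helices, are secreted, lose their end propeptides and assemble side by side into fibrils. Type I collagen is built from the chains encoded by *Col1a1* and *Col1a2*, type III is a homotrimer of the *Col3a1* chain, and type V, the product of *Col5a1* and *Col5a2*, sits inside type I fibrils and limits their width. Lumican, decorin, biglycan and fibromodulin bind the surface of the fibrils and control their spacing. Fibroblasts are the best known source of all of these proteins in the mammary stroma. Macrophages are better known for the uptake and breakdown of collagen.

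The total count per library was 12087428, 11230207 and 6478007 in Lyve-1- replicates 1 to 3 and 13636263, 21406839 and 8061411 in Lyve-1+ replicates 1 to 3. A count of 3 in these libraries corresponds to between 0.144 and 0.437 CPM, the unit used below, which is the count scaled to a common library size after TMM normalisation. *Lyve1* itself had 17, 75 and 51 counts in the Lyve-1- libraries and 30871, 16441 and 4735 in the Lyve-1+ libraries, as the labels state. The pan-leukocyte gene *Ptprc* (CD45) and the macrophage genes *Adgre1* (F4/80) and *Csf1r* were present in every library, and *Csf1r* never fell below 707 CPM. Lyve-1- replicate 3 and Lyve-1+ replicate 1 stood apart in 1 respect. They held counts for 652 and 370 of the 1122 olfactory receptor genes in the table, against 4 to 134 in the other 4 libraries, and results are also given without them.

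All 10 members had a higher mean in the Lyve-1+ fraction, with log2 fold changes from 0.48 for *Fmod* to 2.18 for *Col1a2* and a median of 1.497, against a median of -0.01 over the 13348 genes tested. The shift was widest in type I collagen, *Col5a2* and *Lum*. Only *Col5a2*, 1 of the 10, passed an adjusted p of 0.05 in edgeR's quasi-likelihood test, where 0.45% of all genes tested were called higher. None passed the stricter rule of an adjusted p under 0.01 with a log2 fold change between 1 and 10, where the background was 0.105%. At an unadjusted p under 0.05 the call was made for 8 of the 10, against 4.2% of all genes, and the 2 without it were *Dcn* and *Fmod*. In 6 members every Lyve-1+ library lay above every Lyve-1- library, which held for 7.82% of all genes. These were *Col1a1*, *Col1a2*, *Col3a1*, *Col5a2*, *Lum* and *Bgn*. *Col1a1*, *Col1a2*, *Col3a1* and *Col5a2* are among the genes that the study picked from these same libraries, and their direction is not independent evidence. In bulk RNA of this kind, more cells of a collagen-producing type and more RNA per cell cannot be told apart.

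**Figure D1:**
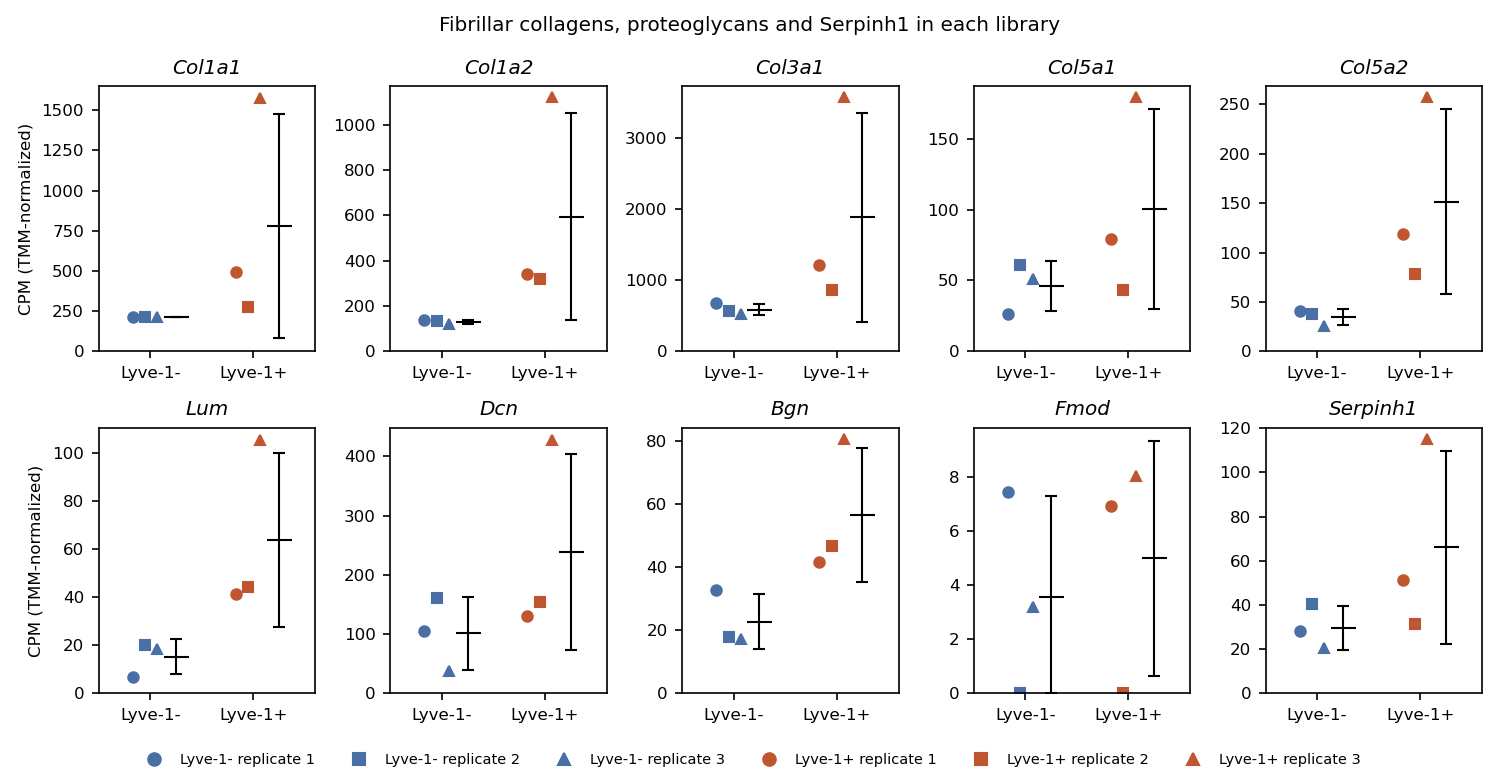
Level of each of the 10 members in CPM in the 3 Lyve-1- and 3 Lyve-1+ libraries, on linear axes from 0 that differ between genes, with 1 symbol per library and the group mean ± SD drawn beside the symbols. The lower *Fmod* bar of the Lyve-1- group is clipped at 0. Lyve-1+ replicate 3 is the highest library for every member.

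Sequences before the RefSeq start of 3 of the collagen genes are shown because these genes cover the 3 fibril types and differ in which short promoter elements they hold. They are from RefSeq on GRCm38.p6, the assembly on which the files' build mm10 is based, and are written 5′ to 3′ on the strand of the gene, with motif letters in capitals. Positions count back from the RefSeq transcription start, with -1 the base before it. The *Col1a2* stretch lies at chr6:4505370-4505492 on the plus strand and covers -248 to -126, since the rest of the window overlaps annotated exons, with GC boxes (GGGCGG) at -205 and -188. The GENCODE gene given below begins at an earlier exon than the RefSeq start, so that this stretch lies inside its span, between annotated exons.
Col1a2: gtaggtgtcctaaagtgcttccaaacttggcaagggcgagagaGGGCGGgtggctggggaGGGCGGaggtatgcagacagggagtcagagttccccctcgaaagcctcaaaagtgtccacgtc
The *Col3a1* stretch is chr1:45311288-45311537 on the plus strand. It has no GC box, and its capitals mark TATAA at -117 with the overlapping TTATA at -118.
Col3a1: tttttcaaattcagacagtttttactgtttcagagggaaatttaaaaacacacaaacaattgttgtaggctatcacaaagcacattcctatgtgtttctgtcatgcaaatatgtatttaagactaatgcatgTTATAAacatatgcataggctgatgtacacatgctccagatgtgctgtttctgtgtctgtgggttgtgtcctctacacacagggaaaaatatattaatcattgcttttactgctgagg
The *Col5a1* stretch is chr2:27886175-27886424 on the plus strand, with GC boxes at -205 (as CCGCCC, on the reverse strand) and at -73.
Col5a1: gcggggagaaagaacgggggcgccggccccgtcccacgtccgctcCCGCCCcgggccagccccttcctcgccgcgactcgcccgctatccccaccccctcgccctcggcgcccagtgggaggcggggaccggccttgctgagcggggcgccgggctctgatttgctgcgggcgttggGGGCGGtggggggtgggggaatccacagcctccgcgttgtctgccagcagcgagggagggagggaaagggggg
RefSeq windows were at hand for 6 of the 10 members. Searched on both strands, GGGCGG occurs in 32.9%, TATAA in 23.5% and CCAAT in 34.5% of the 27025 windows of 250 bases before a gene start. The CCAAT motif was found in 1 of these 3 windows, at -109 of *Col1a2*, outside the stretch shown. These matches describe the letters of the windows and nothing about which factors bind them.

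The members lie on 6 autosomes and the X chromosome of mm10. *Col3a1* (chr1:45311538-45349706, plus strand) and *Col5a2* (chr1:45374321-45503282, minus strand) face each other with their 3′ ends 24.6 kb apart, and *Fmod* lies further along the same chromosome (chr1:134037254-134048277, plus strand). *Dcn* (chr10:97479609-97518143) and *Lum* (chr10:97565128-97572703) follow each other on the plus strand with a gap of 47.0 kb. The others were single: *Col1a1* at chr11:94936224-94953042, *Col1a2* at chr6:4504814-4541544, *Col5a1* at chr2:27886425-28039514 and *Bgn* at chrX:73483602-73495933, each on the plus strand, and *Serpinh1* at chr7:99345376-99353239 on the minus strand. The counts are sums over exons. The exons of *2810430I11Rik* and *Gm13372*, on the opposite strand, overlap those of *Col5a1*, and since the strand setting of the counting is not given in the sources used here, their reads cannot be told apart from its own.

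*Col1a1*, the major chain of type I collagen, stood at 217, 212 and 215 CPM in the Lyve-1- libraries and at 493, 276 and 1576 CPM in the Lyve-1+ libraries. The 3 Lyve-1- pools were nearly level and the Lyve-1+ pools were all higher but far apart from one another. The means were 215 ± 2.36 and 782 ± 697 CPM (SD, n = 3 each). On the log2 scale they differed by 1.86 (SE 0.55), with a p of 0.299 after adjustment in edgeR. Its partner chain *Col1a2* stood at 139, 133 and 119.5 CPM in the Lyve-1- libraries and at 341, 321 and 1120.2 CPM in the Lyve-1+ libraries. The groups did not overlap, and the 2 lower Lyve-1+ libraries were close to each other. The log2 fold change of *Col1a2* was 2.18 (SE 0.44), with an edgeR adjusted p of 0.0541, just above the threshold of 0.05.

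*Col3a1*, which encodes the chain of type III collagen found in soft and vascular tissue, was the most abundant member in every library. Its counts were 8018, 6339 and 3611 in the Lyve-1- libraries and 15940, 18017 and 28313 in the Lyve-1+ libraries, or 674, 563 and 526 CPM against 1214, 863 and 3567 CPM. The fractions did not overlap, and the widest gap within one was that below Lyve-1+ replicate 3. In edgeR the log2 fold change was 1.68 (SE 0.45) and the adjusted p 0.207. Between 45.2% and 52.7% of the counts of the members in a library came from this gene. *Col3a1* ranked 193, 228 and 211 among all symbols in the Lyve-1- libraries, and 81, 114 and 12 in the Lyve-1+ libraries.

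The 2 type V chains differed in how well they set the fractions apart. *Col5a2* stood at 41.3, 38.3 and 26.1 CPM in the Lyve-1- libraries and at 119, 78.8 and 257 CPM in the Lyve-1+ libraries. The groups were apart, and the lowest Lyve-1+ library was nearly 2 times the highest Lyve-1- library. *Col5a2* rose by 2.10 on the log2 scale (SE 0.43), from 35.2 ± 8.07 to 152 ± 93.5 CPM (SD, n = 3 each), with an edgeR adjusted p of 0.0393. Over 17 other normalisations, filters, models and subsets of the libraries its adjusted p ran from 2.26e-05 to 0.434 and was under 0.05 in 13. *Col5a1* stood at 26.6, 60.7 and 50.9 CPM in the Lyve-1- libraries and at 79.1, 43.5 and 179 CPM in the Lyve-1+ libraries. Here the groups overlapped, because Lyve-1+ replicate 2 lay below 2 of the Lyve-1- libraries. For *Col5a1* edgeR gave a log2 fold change of 1.13 (SE 0.49) and an adjusted p of 0.582.

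Among the proteoglycans, *Lum*, which encodes the keratan sulphate proteoglycan lumican, stood at 6.89, 20.2 and 18.5 CPM in the Lyve-1- libraries and at 41.4, 44.4 and 105 CPM in the Lyve-1+ libraries. The 2 fractions were apart by about a factor of 2 at their closest libraries. With a log2 fold change of 2.07 (SE 0.56), *Lum* had an edgeR adjusted p of 0.161. *Bgn*, for biglycan, stood at 32.7, 18.0 and 17.2 CPM in the Lyve-1- and at 41.7, 46.9 and 80.8 CPM in the Lyve-1+ libraries. The groups were again apart, and the Lyve-1+ libraries were closer to each other than for any other member with groups apart, with a coefficient of variation of 37.6%. The log2 fold change of *Bgn* was 1.31 (SE 0.48), with an edgeR adjusted p of 0.409.

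*Dcn*, which encodes decorin, the most abundant proteoglycan of many connective tissues, stood at 106, 160.1 and 37.5 CPM in the Lyve-1- libraries and at 131, 155 and 428 CPM in the Lyve-1+ libraries. The groups overlapped, since Lyve-1- replicate 2 lay above 2 of the Lyve-1+ libraries. The log2 fold change of *Dcn* was 1.23 (SE 0.56), with an edgeR adjusted p of 0.657. *Fmod*, for fibromodulin, had 89, 0 and 22 counts in the Lyve-1- libraries and 91, 0 and 64 in the Lyve-1+ libraries. It was not counted in replicate 2 of either fraction, at depths where 3 counts equal 0.267 and 0.144 CPM, and the other libraries held 3.21 to 8.06 CPM in both groups. Its log2 fold change of 0.48 (SE 2.26) was well within the spread of the pools, and it turned to -0.10 or -0.07 when Lyve-1- replicate 2 or Lyve-1+ replicate 3 was left out.

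*Serpinh1* encodes the chaperone of the endoplasmic reticulum that binds procollagen triple helices. It stood at 28.1, 40.3 and 20.6 CPM in the Lyve-1- libraries and at 51.4, 31.6 and 115 CPM in the Lyve-1+ libraries. Lyve-1+ replicate 2 fell inside the Lyve-1- range. Its log2 fold change was 1.15 (SE 0.50), at an edgeR adjusted p of 0.581.

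**Figure D2:**
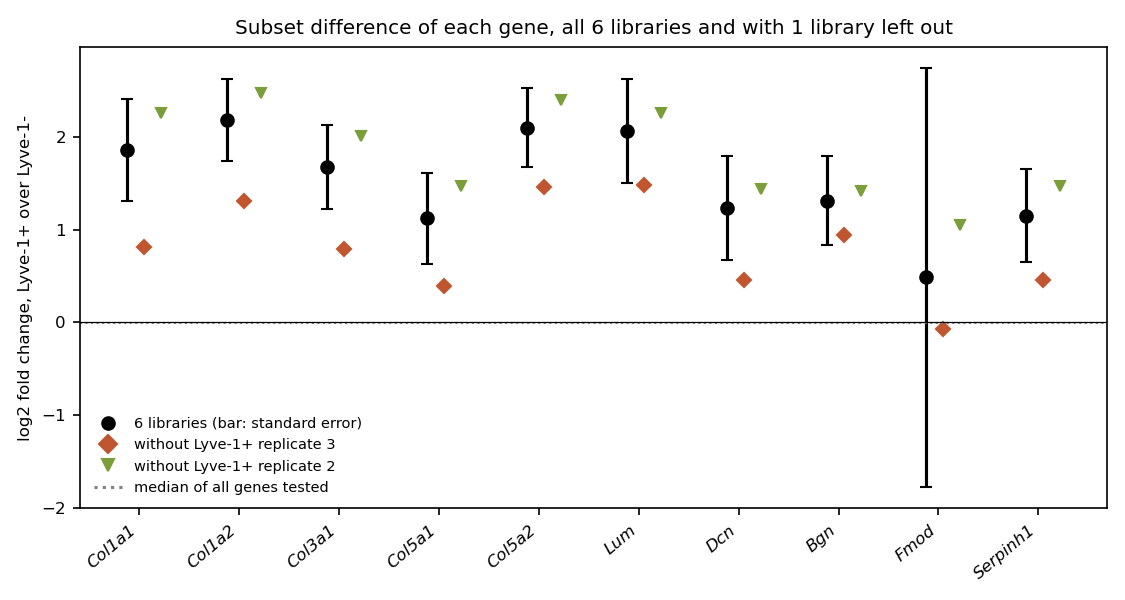
Log2 fold change of each member, Lyve-1+ against Lyve-1-, from edgeR with its SE (n = 3 libraries each), beside the values that leave out Lyve-1+ replicate 3 or replicate 2. The dotted line is the median of all genes tested, -0.01. The values without Lyve-1+ replicate 3 run from -0.07 for *Fmod* to 1.48 for *Lum*, all below those with it.

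The size of the difference depended on Lyve-1+ replicate 3. Its level was above the mean of the other 2 Lyve-1+ libraries by a factor of 1.82 for *Bgn* to 4.1 for *Col1a1*. Together the members took 0.126%, 0.125% and 0.11% of all counts in the Lyve-1- libraries and 0.242%, 0.181% and 0.732% in the Lyve-1+ libraries. The Wilson 95% intervals were 0.107% to 0.128% at their outer bounds in the Lyve-1- fraction, and 0.24% to 0.245%, 0.18% to 0.183% and 0.726% to 0.738% in the Lyve-1+ libraries, and they cover counting error only. The share was therefore higher in each Lyve-1+ library, with or without replicate 3. Without that library the log2 fold changes were 0.82 for *Col1a1*, 1.32 for *Col1a2*, 0.80 for *Col3a1*, 1.46 for *Col5a2*, 1.48 for *Lum* and 0.94 for *Bgn*. They were 0.39 for *Col5a1*, 0.46 for *Dcn*, 0.45 for *Serpinh1* and -0.07 for *Fmod*, and the median over all members was 0.81. The edgeR call then moved from *Col5a2*, with an adjusted p of 0.135, to *Col1a2*, with an adjusted p of 0.0409. Leaving out Lyve-1- replicate 3 ended the call of *Col5a2* as well (log2 fold change 1.93, edgeR adjusted p 0.201). Leaving out Lyve-1+ replicate 2, the lowest Lyve-1+ library for 7 of the members, gave edgeR adjusted p-values under 0.05 for *Col1a1*, *Col1a2*, *Col3a1* and *Col5a2*. In that fit 105 of the 14963 genes tested were called higher at this level, against 60 of 13348 with all libraries. Without Lyve-1- replicate 3 and Lyve-1+ replicate 1, which held the most olfactory receptor genes, the median was 1.58 and no member had an edgeR adjusted p below 0.276.

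The tool mattered as well. In DESeq2's Wald test 5 of the 10 members had an adjusted p under 0.05, namely *Col1a1* (0.012), *Col1a2* (0.000174), *Col3a1* (0.0104), *Col5a2* (0.00166) and *Lum* (0.038), where 1.02% of the 15419 genes with an adjusted p were called higher. *Col1a2* and *Col5a2* also passed the stricter rule in DESeq2, against 0.571% of genes. The fold changes themselves were close, at 2.10 in edgeR and 2.08 in DESeq2 for *Col5a2* and at 1.86 and 1.85 for *Col1a1*.

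The age of the mice was mixed within each fraction, and the members were therefore also read within each age. At 6 weeks, with 1 library per fraction and no replicate check, the log2 ratio of CPM was 1.19 for *Col1a1*, 1.29 for *Col1a2*, 0.85 for *Col3a1*, 1.57 for *Col5a1*, 1.52 for *Col5a2* and 2.59 for *Lum*. It was 0.87 for *Serpinh1*, 0.35 for *Bgn* and 0.31 for *Dcn*, and *Fmod* stood at -0.11. At 10 weeks, with 2 libraries per fraction, the log2 fold change was 2.10 for *Col1a1*, 2.50 for *Col1a2*, 2.01 for *Col3a1*, 0.98 for *Col5a1*, 2.36 for *Col5a2* and 1.94 for *Lum*. The proteoglycans *Dcn*, *Bgn* and *Fmod* then stood at 1.52, 1.84 and 1.35 and *Serpinh1* at 1.24. The lowest edgeR adjusted p among the 10-week values was 0.157, for *Col5a2*. The difference between the ages was tested as an interaction in edgeR, and no member had an unadjusted p under 0.05 for it or for age itself.

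Levels of different members were compared per kilobase of 1 coding transcript each, while the counts are summed over all exons of a gene. On this scale *Col3a1* was highest in both fractions, at 106 ± 13.8 CPM per kb in the Lyve-1- and 338 ± 264 in the Lyve-1+ libraries (SD, n = 3 each). *Dcn* came next in both fractions by the mean, at 57.5 ± 35 and 135 ± 94 CPM per kb, and then *Col1a1*, at 36.2 ± 0.398 and 132 ± 117. *Dcn* and *Col1a1* did not differ beyond their spread in either fraction, and their order turned with the length used. Per kilobase of the union of all exons *Dcn* was at 17.3 ± 10.5 and 40.7 ± 28.3 CPM, below *Col1a1* at 32.7 ± 0.36 and 119 ± 106, while *Col3a1* was again highest at 59.9 ± 7.81 and 192 ± 150. *Col1a2* followed at 24.4 ± 1.86 and 111 ± 85.3 CPM per kb, below *Col1a1* by more than the spread in the Lyve-1- but not in the Lyve-1+ libraries. By the union of exons *Col1a2* was lower, at 10.5 ± 0.8 and 47.8 ± 36.7 CPM per kb, and also below *Serpinh1* and *Dcn* in the Lyve-1- mean. The other levels per kb were from 1.14 ± 1.2 and 1.6 ± 1.4 for *Fmod* to 13 ± 4.39 and 29.1 ± 19.2 for *Serpinh1*. By transcript length, neighbours among these lower members, from *Serpinh1* through *Bgn*, *Lum*, *Col5a1* and *Col5a2*, were within each other's spread.

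Proportions between members were compared within each library. Per kilobase the ratio of *Col1a1* to *Col1a2*, whose chains are joined in type I collagen, was 1.41, 1.44 and 1.62 in the Lyve-1- libraries and 1.31, 0.777 and 1.27 in the Lyve-1+ libraries. Every Lyve-1+ ratio was below every Lyve-1- ratio, with a two-sided exact permutation p of 0.1, the smallest that 3 against 3 libraries can give. The absolute size of each ratio, though not its relative difference between the fractions, depends on the length chosen. With the union of all exons the Lyve-1- and Lyve-1+ means were 3.13 and 2.35 for *Col1a1* to *Col1a2*, in place of 1.49 and 1.12. The ratio of *Col3a1* to *Col1a1*, type III to type I, was 3.31, 2.83 and 2.61 in the Lyve-1- libraries and 2.62, 3.33 and 2.41 in the Lyve-1+ libraries, which overlap (exact permutation p 0.8). The ratio of the chaperone *Serpinh1* to *Col1a1* was 0.337, 0.496 and 0.249 against 0.272, 0.298 and 0.191 (exact permutation p 0.3). Proteoglycans varied more. *Dcn* to *Lum* was 21.4, 11.1 and 2.82 in the Lyve-1- libraries and 4.4, 4.85 and 5.66 in the Lyve-1+ libraries (exact permutation p 0.4), with the Lyve-1+ pools closer to each other than the Lyve-1- pools. By the union of exons the means of *Dcn* to *Lum* were 3.54 and 1.496 in place of 11.8 and 4.97, and those of *Col3a1* to *Col1a1* were 1.83 and 1.75 in place of 2.92 and 2.79. *Bgn* to *Dcn* was 0.224, 0.0819 and 0.334 against 0.232, 0.22 and 0.137 (exact permutation p 0.9). Adjusted over these 5 ratios, the exact permutation p-values ran from 0.5 to 0.9, and none could pass 0.05 at this number of libraries.

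**Figure D3:**
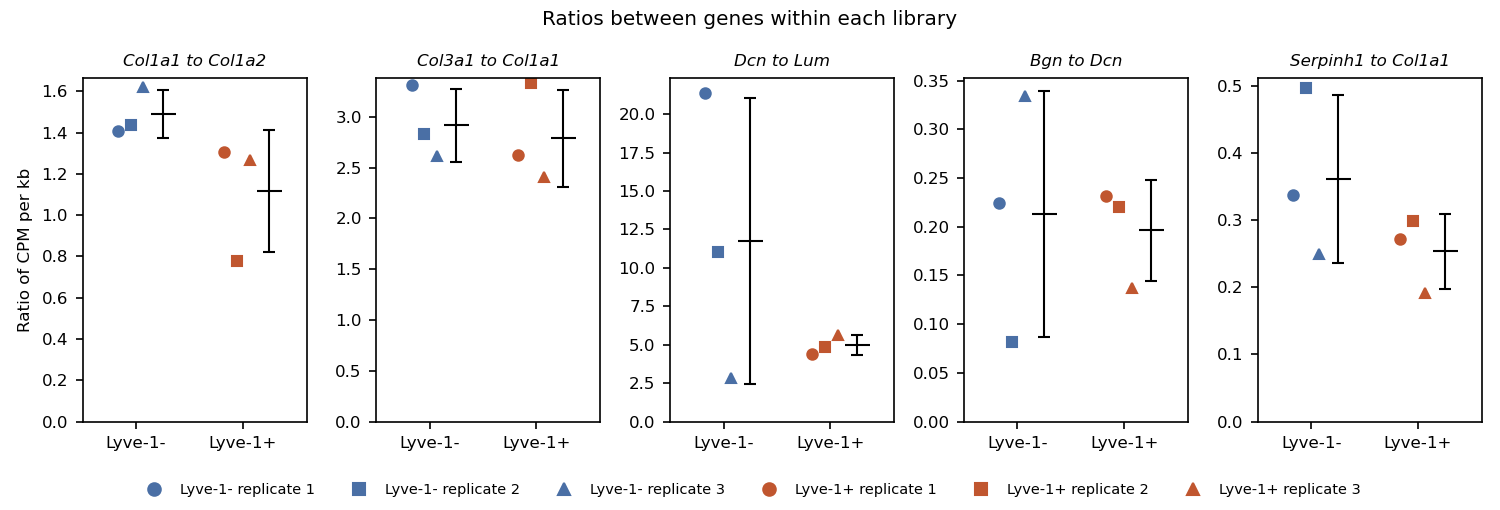
Ratios of CPM per kb between pairs of members in each of the 6 libraries, on linear axes from 0 that differ between pairs, with 1 symbol per library and the group mean ± SD. The ratio of *Col1a1* to *Col1a2* spans 0.777 to 1.62, and that of *Dcn* to *Lum* spans 2.82 to 21.4.

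Across the 6 libraries the members varied largely together. The Pearson correlation of log2 CPM over the 45 pairs of members ran from -0.02 to 0.99 with a median of 0.83, and 12 pairs were over 0.9. Each member was also set against the mean of the others: *Col3a1* (0.991) and *Col1a1* (0.99) followed it most closely, *Lum* (0.735) and *Dcn* (0.705) less so, and *Fmod* (0.267) least. These are descriptions over 6 libraries that share the 2 fractions and, in Lyve-1+ replicate 3, 1 library with high values. Among 8478 other genes, 86 had a correlation over 0.9 with the mean profile of the members. The 10 highest were *Smg9* (0.987), *Col6a1* (0.986), *Postn* (0.985), *Cfdp1*, *Adamts12*, *Serpinf1*, *Nom1*, *Ccdc80*, *Lamb1* and *Dsel* (0.967). *Col6a1* encodes a chain of the beaded collagen type VI and *Postn* the matrix protein periostin. *Postn* stood at 258, 159 and 156 CPM in the Lyve-1- libraries and at 538, 188 and 1491 CPM in the Lyve-1+ libraries, with the same high library as the collagens. None of these 10 genes had an edgeR adjusted p under 0.05.

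Markers of fibroblasts were read beside the members, and they were divided. The 17 fibroblast markers, none of them a collagen or a member, summed to 183, 219 and 259 CPM in the Lyve-1- libraries and to 372, 279 and 600.5 CPM in the Lyve-1+ libraries, and these sums did not overlap. In 13 of the 16 tested the fold change was above 0, against 49.4% of all genes, with a median of 0.46 on the log2 scale. None had an edgeR adjusted p under 0.05. At an unadjusted edgeR p under 0.05, 2 of the 16 were higher (*Pdgfra* and *Clec3b*), against 4.2% of all genes. The fractions were fully apart for 2 of the 16 (*Pdgfra* and *Twist1*), both with Lyve-1+ higher, against 7.82% of all genes. Several of these markers were near 0 or below, among them *Dpp4* (0.10), *Cd34* (0.15), *Prrx1* (0.21), *Pi16* (-0.08) and *Scara5* (-0.21). Between 0 and 4 of the 17 were at 0 in a library, and *Twist1* (2.90) and *Ebf2* (-0.64) had the most positive and most negative fold changes. *Pdgfra*, the receptor that defines many fibroblasts, stood at 23.4, 23.9 and 37 CPM and at 88.8, 49.5 and 205 CPM, with the groups apart. Its log2 fold change was 2.02 (SE 0.48), with an edgeR adjusted p of 0.088. *Pdgfrb*, shared by fibroblasts and mural cells, stood at 21.6, 41.2 and 26.2 CPM and at 35.6, 42.3 and 71.6 CPM, which overlap. *Tcf21* was at 0 in 5 libraries and *Twist2* in 3. The part of fibroblast RNA in the members' difference was not tested.

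Each member was also read relative to these markers in the same library. This was done after the values had been seen, and *Pdgfra* had the lowest edgeR p of the fibroblast markers tested (0.000797, unadjusted). Divided by *Pdgfra*, the summed members were 54.7, 52.1 and 27.9 in the Lyve-1- libraries and 28.4, 37.5 and 36.4 in the Lyve-1+ libraries (exact permutation p 0.4). No member then had all Lyve-1+ libraries above all Lyve-1- libraries. *Col1a1* was 9.28, 8.88 and 5.8 times *Pdgfra* in the Lyve-1- libraries against 5.55, 5.58 and 7.7 times in the Lyve-1+ libraries (exact permutation p 0.2), and *Col5a2*, the member called by edgeR, was 1.77, 1.6 and 0.705 times against 1.34, 1.59 and 1.26 times (exact permutation p 1). *Col5a1* was lower in every Lyve-1+ library on this scale, at 1.14, 2.54 and 1.37 against 0.89, 0.879 and 0.877 times (exact permutation p 0.1, the smallest possible). The fold change of *Pdgfra* lay within the range of those of the collagens. Over the sum and the 9 members other than *Fmod*, the exact permutation p-values adjusted together were 0.778 to 1.

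Divided by the summed fibroblast markers instead, the members together were 6.99, 5.68 and 3.99 in the Lyve-1- libraries and 6.76, 6.67 and 12.4 in the Lyve-1+ libraries (exact permutation p 0.3). On this scale 3 members still had all Lyve-1+ libraries highest. The share of all genes with that order on this scale was not computed. *Col1a2* was 0.759, 0.607 and 0.461 times the marker sum against 0.915, 1.15 and 1.87 times, *Col5a2* 0.226, 0.174 and 0.101 times against 0.319, 0.283 and 0.428 times, and *Lum* 0.0376, 0.0919 and 0.0714 times against 0.111, 0.159 and 0.175 times (each with an exact permutation p of 0.1, the smallest possible). The other members overlapped, and the adjusted exact permutation p-values were 0.333 to 0.9. The log2 difference between the fractions was 1.07 for *Col1a2*, 1.09 for *Col5a2* and 1.22 for *Lum*, against 0.11 for *Col5a1* and 0.14 for *Serpinh1*.

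**Figure D4:**
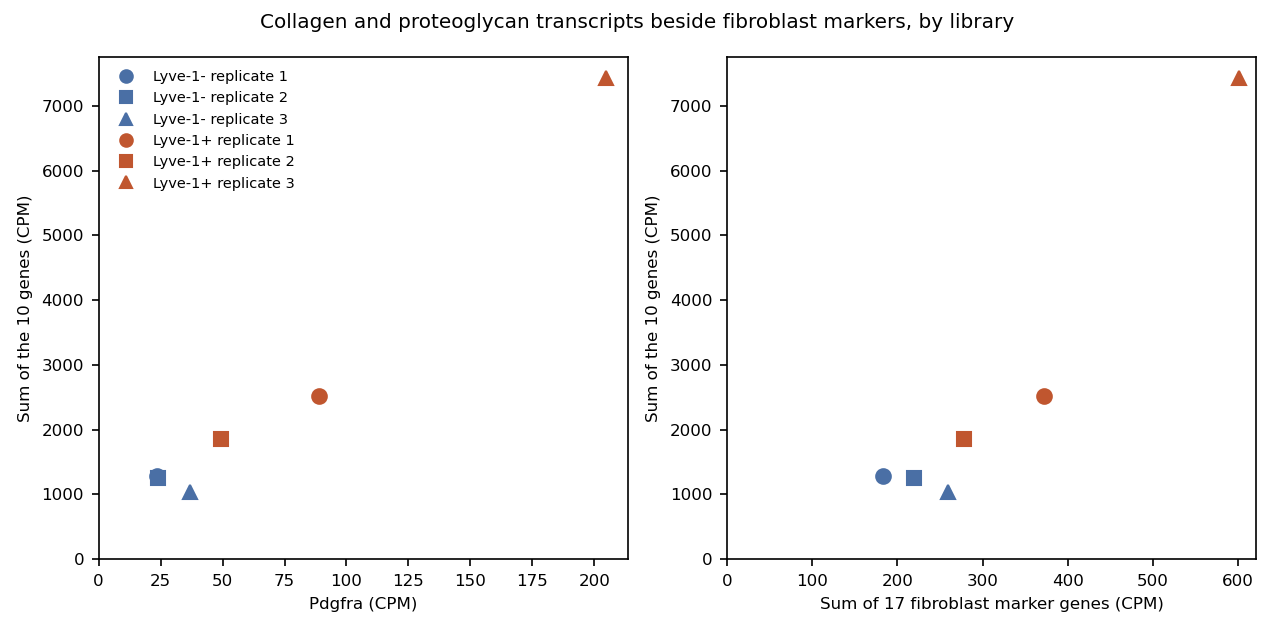
Summed CPM of the members against that of *Pdgfra* and of the 17 fibroblast markers in each library, on linear axes from 0, with 1 symbol per library. Lyve-1+ replicate 3 has the highest value on each axis, with 205 CPM of *Pdgfra* and 600.5 CPM of fibroblast markers.

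Summed markers of the other cell types that a mammary digest holds overlapped between the fractions. Mural cell markers summed to 87.0 to 259 CPM in the Lyve-1- and 113 to 175 CPM in the Lyve-1+ libraries, vascular endothelial markers to 45.8 to 110.3 and 41.1 to 147 CPM, and epithelial markers to 39.9 to 228 and 42.7 to 69.3 CPM. Single markers did stand apart, in the direction opposite to the members. The epithelial *Epcam* was at 25.04, 23.5 and 29.6 CPM in the Lyve-1- and 10.4, 11.4 and 3.15 CPM in the Lyve-1+ libraries (log2 fold change -1.64, edgeR adjusted p 0.588), and 5 of the 6 epithelial markers were below 0 with a median of -1.29. The endothelial *Tek* was at 38.1, 14.4 and 14.0 CPM in the Lyve-1- libraries and 13.8, 8.48 and 0 CPM in the Lyve-1+ libraries (log2 fold change -1.57). It was the exception in its list, since 4 of the 5 vascular endothelial markers were above 0, with a median of 0.54. The part of these cells in the members' difference was not tested. Adipocyte markers summed to at most 7.73 CPM in the Lyve-1- and 11.1 CPM in the Lyve-1+ libraries. Lymphatic endothelial markers other than *Lyve1* summed to 0, 0 and 54.8 CPM in the Lyve-1- and 14.5, 13.8 and 16.4 CPM in the Lyve-1+ libraries. The overlap rested on Lyve-1- replicate 3, the library with counts for 652 olfactory receptor genes. *Ccl21a* was at 0 in all 6 libraries. Macrophage and leukocyte markers summed to 4855 to 7480 CPM in the Lyve-1- and 5849 to 7232 CPM in the Lyve-1+ libraries. On the log2 scale *Ptprc* differed by -0.62, *Adgre1* by -0.29, *Itgam* (CD11b) by 0.08 and *Csf1r* by 0.78, and the lowest edgeR adjusted p of these 4 was 0.28.

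Genes that act with the members were read as lists, and in none of 7 lists did any gene pass an edgeR adjusted p of 0.05 in either direction. Of the other fibrillar collagens 5 of 6 were tested. *Col11a1* (log2 fold change 2.54, SE 2.00) and *Col5a3* (0.88, SE 0.64) were higher, and *Col27a1* (-0.94, SE 0.53), *Col24a1* and *Col11a2* lower. *Col24a1* was at 0, 0.355 and 23.9 CPM in the Lyve-1- libraries, highest in replicate 3, the library with the most olfactory receptor genes. The median of this list, -0.26, was the value of *Col11a2* (SE 2.00), with 0, 21 and 95 counts in the Lyve-1- and 102, 87 and 9 in the Lyve-1+ libraries. At this spread the median does not set the list apart from the members. The fibril-associated and beaded collagens had 9 genes tested, with 5 above 0, 4 below and a median of 0.38. *Col9a2*, a cartilage collagen at 0 counts in 3 libraries, was lowest at -3.05. *Col9a1*, at -2.27, was at 0, 2.75 and 20.0 CPM in the Lyve-1- libraries, again highest in replicate 3. The type VI chains *Col6a2* and *Col6a1* stood at 1.78 and 1.70 (edgeR adjusted p 0.141 and 0.181). Of 14 other small leucine-rich proteoglycans 9 were tested, and 8 were higher, with a median of 0.54. *Ogn*, for osteoglycin, had the highest fold change at 1.41 and *Chad*, for chondroadherin, the lowest at -1.96.

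The enzymes and chaperones that hydroxylate, fold and export procollagen had higher means in 15 of the 17 tested, at a median log2 fold change of 0.44. *Fkbp10*, a collagen-binding prolyl isomerase, was highest at 3.21, with 0, 16 and 8 counts in the Lyve-1- libraries and 73, 70 and 121 in the Lyve-1+ libraries, and *P4ha3* was lowest at -1.09. *Plod1*, a lysyl hydroxylase, was at 0.98 and was the only gene of this list with an unadjusted p under 0.05 (edgeR adjusted p 0.541). For propeptide cleavage and crosslinking 6 genes were higher and 8 lower, with a median of -0.33. They ran from *Tll1* at -2.24 (SE 2.25) to the procollagen enhancer *Pcolce2* at 2.25 (SE 1.67). *Tll1* was at 2.44, 0.267 and 15.0 CPM in the Lyve-1- libraries, highest in replicate 3, the library with the most olfactory receptor genes. The only gene of this list with an unadjusted p under 0.05 was *Tgm2*, at -1.71 (edgeR adjusted p 0.564). Fibronectin, *Fn1*, which guides fibril assembly and which macrophages also make, had a log2 fold change of -0.65, with 6957, 4227 and 3506 CPM in the Lyve-1- and 1809, 2959 and 4571 CPM in the Lyve-1+ libraries. Genes for the synthesis of proteoglycan chains were higher in 12 and lower in 7, with a median of 0.78, from *Chst11* at -1.22 to *Chpf* at 2.68. *Xylt2*, which starts the chains, stood at 1.83 and *Dse*, the dermatan sulphate epimerase, at 1.11 (edgeR adjusted p 0.162 and 0.33).

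The collagen receptors and uptake genes were divided, with 4 of the 9 tested above 0 and 5 below and a median of -0.48 on the log2 scale. *Ddr2*, the receptor tyrosine kinase activated by fibrillar collagen and typical of mesenchymal cells, stood at 10.1, 6.13 and 15.6 CPM in the Lyve-1- libraries and at 45.3, 41.3 and 79.8 CPM in the Lyve-1+ libraries. Its groups were well apart, at 2.39 on the log2 scale (edgeR adjusted p 0.0743). *Mrc1*, the mannose receptor through which macrophages take up collagen, was at 1.21 (edgeR adjusted p 0.056), and *Itga1*, a collagen-binding integrin chain, at -1.82.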

How the data were processed

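The authors digested inguinal mammary glands, without their lymph nodes, with collagenase and DNase, sorted the cells, and made stranded total RNA libraries. They aligned paired reads to mm10 with HISAT2 2.0.2 and deposited raw counts per gene symbol, made with featureCounts 1.5.0 (tools per the submitters' processing notes). The strand setting and the annotation used for counting are not given in the sources used here. Counts were tested here as deposited with edgeR 4.0.16 in R 4.3.3 (TMM, low counts filtered by expression, quasi-likelihood test, all 6 libraries, no covariate), with Benjamini-Hochberg adjustment over the 13348 genes tested. A check on simulated data came first. Its simulated spread was below the common estimate of these data (biological coefficient of variation 0.931), so it does not show the power reached here. All 10 members passed the filter. DESeq2 1.42.0, other scalings and filters, a replicate block, age, and each library left out were alternatives. The members and gene lists were chosen with earlier results of these data known. Named genes were every member, the largest rise or fall and fixed key genes of each list, and the 10 genes most like the members' mean profile. Other genes were named after their values were seen. Older symbols were matched through RefSeq synonyms. Gene positions are from GENCODE M21.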

Additional observations from a re-analysis of the deposited data

How the results depend on the processing

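The median log2 fold change of the members, 1.497, kept its sign under every other scaling, filter, model and subset of libraries tried, from 0.81 without Lyve-1+ replicate 3 to 1.89 in the 10-week libraries alone. A different measure, the difference of mean log2 ratios over the 9 members other than *Fmod*, was taken with 2 divisors chosen after seeing the data. Its median was 0.55 relative to the summed fibroblast markers, and relative to *Pdgfra* it reversed to -0.41. The edgeR median with at least 10 counts in every library, which also leaves out *Fmod*, was 1.66. *Pdgfra* itself had a log2 fold change of 2.02, above the 1.497 of the members, so the reversed sign follows from this divisor. The median over the fibroblast markers tested was 0.46. Relative to *Pdgfra* the log2 difference also reversed for *Col1a1* (-0.33), *Col3a1* (-0.41), *Col5a1* (-0.85), *Dcn* (-0.56), *Bgn* (-0.50) and *Serpinh1* (-0.81). The edgeR log2 fold change of *Fmod*, not relative to *Pdgfra*, ran from -0.10 to 1.66 as single libraries were left out. It was -0.10 with Lyve-1- replicate 2 and -0.07 with Lyve-1+ replicate 3 removed.

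The number of members with an adjusted p under 0.05, 1 in edgeR, was 5 in DESeq2, 6 with no filter on low counts, 2 with at least 10 counts in every library (which leaves out *Fmod*), and 0 in the 10-week libraries alone or without both libraries rich in olfactory receptor genes. It ran from 0 to 4 as single libraries were left out. Over all genes, those called higher were 60 of 13348 in edgeR, 158 of 15419 in DESeq2 and 169 of 21663 with no filter. They were 82 of 8865 with at least 10 counts in every library, and 23 of 13625 in the 10-week libraries. As single libraries were left out, they ran from 17 of 13654 (without Lyve-1- replicate 3) to 105 of 14963 (without Lyve-1+ replicate 2). Under the stricter rule the 0 members of edgeR became 2 in DESeq2 and 4 with no filter, and 0 to 4 as single libraries were left out. Over all genes, the stricter calls of a higher level were 14 in edgeR, 88 in DESeq2 and 116 with no filter. They ran from 1 to 62 as single libraries were left out. The cause of these changes was not tested. With the replicate number as a block, 3 members had an adjusted p under 0.05 and 1 passed the stricter rule. Over all genes the stricter calls in either direction went from 15 to 140. The 3 were *Col1a2* (edgeR adjusted p 0.0146), *Col5a2* (0.00691) and *Lum* (0.0295). The sources used here do not say whether same-numbered fractions came from the same mice. Over all genes tested, the deviations of same-numbered libraries correlated at -0.05, -0.002 and -0.15. The highest value between the fractions, 0.16, was that of Lyve-1- replicate 3 with Lyve-1+ replicate 1, the libraries with the most olfactory receptor genes. These correlations cannot decide whether mice were shared. The reported edgeR test used no block.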
